A study of Homo sapiens with 12 samples.

Results

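The RHOBTB proteins are a small family, RHOBTB1, RHOBTB2 and RHOBTB3, and CUL3 is the cullin scaffold they bind. All probes annotated to these 4 genes, under current or older symbols, were taken, which gave 7 of the 47323 probes with values: 4 for RHOBTB1 and 1 each for RHOBTB2, RHOBTB3 and CUL3. The probes were measured on Illumina single-colour bead arrays in MDA-MB-231 cells, a human triple-negative breast cancer line, transfected for 24 h with 30 nM of a locked nucleic acid (LNA) gapmer, an antisense oligonucleotide that directs RNase H to its target RNA. Of the 12 arrays, 6 held cells given the gapmer against the long noncoding RNA CYTOR (LINC00152), and the other 6 held cells given a control LNA. Both groups received the lipid reagent, so neither shows untreated cells, and all cells came from 1 line. The labels split the arrays into batches, with 1 CYTOR LNA and 3 control LNA samples in batch 1 and 5 and 3 in batch 2. RHOBTB3 was chosen by its fold change in this very comparison, and its relatives and partner were added for their kinship, so member values are a description. The contrast shows which RNAs differ between cells given the CYTOR LNA and cells given the control LNA. Effects of losing CYTOR and other effects of its gapmer cannot be told apart in this design.

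A RHOBTB protein joins a GTPase-like domain to a pair of BTB domains, the fold through which substrate adaptors dock onto CUL3. CUL3 carries the RING protein RBX1 and is switched on when the ubiquitin-like protein NEDD8 is attached to it, so that an adaptor, its bound substrate and a ubiquitin-charged enzyme come together. RHOBTB2, also named DBC2 for "deleted in breast cancer", was proposed as a tumour suppressor and is itself a CUL3 substrate. RHOBTB1 has been linked to Golgi integrity and to turnover of the phosphodiesterase PDE5A. RHOBTB3 binds and hydrolyses ATP, acts with RAB9 in returning mannose 6-phosphate receptors from endosomes to the Golgi, and takes part in the degradation of HIF1A.

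RHOBTB3 was the 1 member whose probe stood clear of the dim signals of the array, so the stretch around its annotated transcription start is shown. The RefSeq window (GRCh38.p14, plus strand, chr5:95731086-95731385) covers 250 bases before the start and 50 after it, and capitals mark an E-box, CACGTG, which is the same on both strands.
RHOBTB3: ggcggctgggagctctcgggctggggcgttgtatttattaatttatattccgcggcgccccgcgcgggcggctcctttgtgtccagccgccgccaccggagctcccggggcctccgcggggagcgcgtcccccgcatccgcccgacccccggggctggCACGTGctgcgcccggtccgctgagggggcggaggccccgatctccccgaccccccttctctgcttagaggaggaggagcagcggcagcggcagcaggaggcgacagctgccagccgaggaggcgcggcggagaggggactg
The E-box begins 92 bases before the start, and 7.26% of 35116 windows of this length hold at least 1. The window also holds 3 matches to GGGCGG on either strand (45.0% of windows hold at least 1) and 1 match to TATAAA on either strand (11.5% of windows), and none of these overlaps another motif. Its GC content was 73.7%, against a median of 58.7% over all windows. An E-box lay in 1 of the 4 RHOBTB1 windows and in 0 of the 2 CUL3 windows, and RHOBTB2 windows were not examined. The motifs were picked with the sequence in view, and a match describes letters and not binding.

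The target check came out as labelled. The brightest CYTOR probe ranged from 6.64 to 6.86 on the log2 scale in the 6 CYTOR LNA arrays and from 7.72 upward in the 6 control arrays, a difference of -1.10. The other CYTOR probes were dimmer: ILMN_3230508 differed by -0.67 with no overlap, and ILMN_3230572, near the array median, by -0.13 with overlapping groups. The median of every array lay near 6.53 on the log2 scale, and signal close to it cannot be told from background because no detection p-values were used. Of 10 markers of MDA-MB-231 cells, 7 lay in the brightest 10% of probes, VIM among them, while SPARC and ZEB1 lay near the array median. Of these 10, CD44 (11.8 after the CYTOR LNA and 12.1 after the control LNA) and EGFR (7.94 and 8.14) were called lower by limma. Among all tested genes limma called 5.40% lower and 2.49% higher, and the marker sets are too small to compare with these shares. Of 9 luminal, epithelial and basal markers that the line should lack, 0 lay in the brightest 10%, though ERBB2 (7.81 and 7.76 after CYTOR LNA and control LNA) and EPCAM (7.84 and 7.98) stood above the array median. Of 11 leukocyte, endothelial and fibroblast markers, CD68 lay in the brightest 10%, CD14 was called higher and PECAM1 lower, while PTPRC and CD3E averaged at most 6.47. The summed log2 level of these 11 markers was 77.7 to 78.2 in CYTOR LNA arrays and 77.4 to 77.8 in control arrays, and its part in the results was not tested. No labels say that replicates came from separate cultures, so every error describes spread among these arrays that may be technical only. The number of arrays limits the precision, and in RNA of whole cultures a change in every cell cannot be told apart from a change in some of them.

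RHOBTB3 was much lower in the cells given the CYTOR LNA. In replicate order its probe read 7.77, 7.67, 7.66, 7.70, 7.80 and 7.63 (log2) in the CYTOR LNA arrays. In the control arrays it read 9.17, 8.85, 9.38, 9.37, 9.08 and 9.19. The groups did not overlap, and the highest CYTOR LNA array, replicate 5, lay 1.05 below the lowest control array, replicate 2.

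CYTOR LNA arrays averaged 7.70 ± 0.07 and control LNA arrays 9.17 ± 0.20 (SD, n = 6 each). With batch as a covariate the log2 difference was -1.46 (SE 0.075, 95% interval -1.61 to -1.30), that is 2.75-fold lower, or 36.4% of the control signal. The control arrays spread 2.93 times as widely as the silenced ones by SD. The lowest silenced array still lay 1.10 above its array median, so the probe had not sunk to the level of the dim probes. On each array the probe outshone 82.2% to 83.8% of all probes after the CYTOR LNA and 90.8% to 93.3% after the control LNA. Because the deposited values may be compressed at low signal, the fold could be understated.

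The gap was present in both batches. Within batch 2 the 5 CYTOR LNA arrays ran from 7.63 to 7.80 and the 3 control arrays from 8.85 to 9.38, a difference of -1.42. Within batch 1 the single CYTOR LNA array read 7.67 and the 3 control arrays ran from 9.08 to 9.37, a difference of -1.55 that rests on that 1 array. Only 3 of the 12714 genes tested had a more negative difference. RHOBTB3 was picked for this fall, so these values describe it and no test is claimed for them. In the fit across all probes, limma called 1 of the 3 member genes with a tested probe lower (adjusted p below 0.05), RHOBTB3, and it called 5.40% of all tested genes lower and 2.49% higher. The groups did not overlap, with CYTOR LNA lower, for 4.83% of all tested genes.

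**Figure D1:**
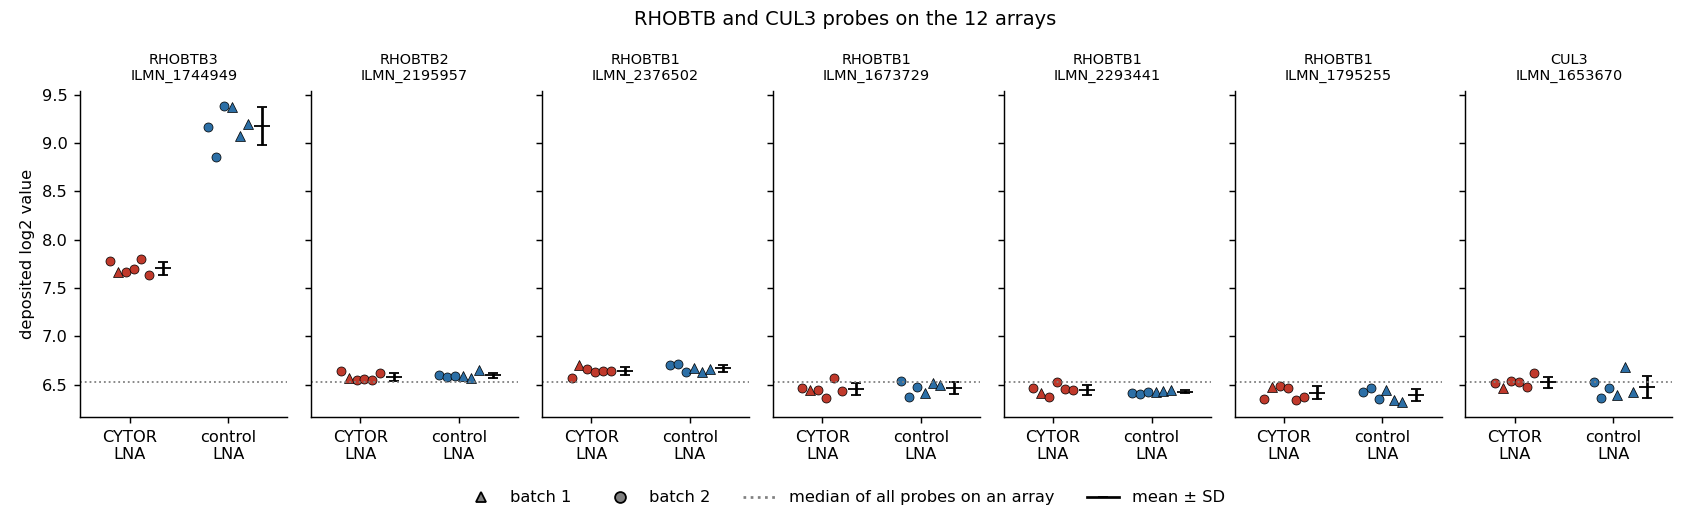
Deposited log2 value of each of the 7 member probes on the 12 arrays, CYTOR LNA left and control LNA right, with triangles for batch 1, circles for batch 2, bars for mean ± SD (n = 6) and a dotted line at the median of all probes. RHOBTB3 lies between 7.63 and 7.80 after the CYTOR LNA and between 8.85 and 9.38 after the control LNA, and the other 6 probes lie between 6.32 and 6.71 in both groups.

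The other members gave signals near or below the array median, and their groups overlapped at all 6 probes. Over the 12 arrays the 6 probes outshone 0.36% to 67.5% of all probes. The RHOBTB2 probe outshone 52.5% to 64.8% and the brightest RHOBTB1 probe 56.4% to 67.5%. RHOBTB2 read 6.54 to 6.64 in CYTOR LNA arrays (median 6.56) and 6.57 to 6.65 in control arrays (median 6.59). Its means were 6.58 ± 0.04 and 6.60 ± 0.03 (SD, n = 6 each), a log2 difference of -0.02 (SE 0.031, 95% interval -0.08 to 0.05). The probe was tested in the array-wide fit and was not called.

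RHOBTB1 was read by 4 probes, 3 of them annotated to transcript records of the noncoding type and 1, ILMN_1795255, to a coding one. The brightest, ILMN_2376502, ran from 6.57 to 6.70 (median 6.64) after the CYTOR LNA and from 6.63 to 6.71 (median 6.66) after the control LNA. Its log2 difference was -0.02 (SE 0.033, 95% interval -0.09 to 0.04), and it was the 1 RHOBTB1 probe bright enough to be tested. The other 3 stayed below the filter of 6.52 on the mean over the 12 arrays: ILMN_1673729 differed by -0.01, ILMN_2293441 by 0.02 and the coding-transcript probe by 0.02. The 4 probes thus gave 2 small negative and 2 small positive differences, each smaller than its SE. Their annotated gene spans 141 kb, against 78.7 kb for RHOBTB3, 69.4 kb for RHOBTB2 and 115 kb for CUL3. The median span of the tested genes was 27.2 kb, and whether span goes with the differences was not tested.

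CUL3, the scaffold, was read by 1 probe with values of 6.46 to 6.62 (median 6.52) in CYTOR LNA arrays and 6.36 to 6.68 (median 6.44) in control arrays. The control arrays enclosed the silenced ones. The difference was 0.05 (SE 0.043, 95% interval -0.04 to 0.14), with 0.08 within batch 2 and -0.04 within batch 1, and the probe was too dim to be tested. Over the 6 probes of RHOBTB1, RHOBTB2 and CUL3 the 95% intervals allow a change of at most 1.10-fold in signal. At signals this near the array median that bound is on the probe and not on the transcript, so whether CUL3, RHOBTB1 or RHOBTB2 RNA changed was not measurable here. Levels of different members cannot be ranked, since each probe has its own brightness.

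The rest of the CUL3 ligase was followed through genes listed by role. Among 22 tested genes of the ligase machinery, which covers RBX1, the NEDD8 pathway, the exchange factor CAND1 and the COP9 signalosome, COPS5 fell, 0 rose and 21 did not pass, so 4.55% of the list was called. COPS5 is the signalosome subunit that cuts NEDD8 off cullins. It read 10.64 to 10.82 (median 10.77) in CYTOR LNA arrays and 11.09 to 11.31 (median 11.13) in control arrays, with no overlap. It was 1.33-fold lower (log2 difference -0.41, SE 0.055, limma adjusted p = 1.1e-05), and the difference was -0.41 within each batch. The 21 others lay between -0.16 and 0.24, the upper end being UBA3, a subunit of the NEDD8-activating enzyme (SE 0.074, limma adjusted p = 0.053), a gene named after its value was seen. The median of the list was 0.00, as over all tested genes (0.00), and limma called 7.89% of all tested genes in either direction.

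Substrate adaptors with a BTB domain, the class to which the RHOBTB proteins belong, held 1 called gene. Of 44 tested, TNFAIP1 rose, 0 fell and 43 did not pass, and the median difference was 0.04. That is 2.27% of the list, below the 7.89% called among all tested genes. TNFAIP1 encodes a BTB adaptor of CUL3 first found as induced by tumour necrosis factor. It read 7.81 to 8.01 (median 7.91) in CYTOR LNA arrays and 7.66 to 7.79 (median 7.69) in control arrays, with no overlap. It was 1.15-fold higher (log2 difference 0.21, SE 0.049, limma adjusted p = 0.010), with 0.33 within batch 1 and 0.16 within batch 2. Leaving out CYTOR LNA replicate 2 ended the call, this being the single silenced array of batch 1 (limma adjusted p = 0.084, in a range of 0.0040 to 0.10 over 24 alternatives). The 43 others lay between -0.15 for KCTD5 and 0.19 for BTBD1, both BTB adaptors named after their values were seen.

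None of the other 7 cullins was called by limma, which called 7.89% of all tested genes in either direction. Of these 7, 0 had an unadjusted p under 0.05, and with so few genes an absence of calls says little. The 7 cullins lay between -0.08 for CUL4A and 0.12 for CUL2. Probes of CUL7 (6.61 after the CYTOR LNA and 6.56 after the control LNA) and CUL9 (6.55 and 6.57) were near the array median. The bright probes of CUL1 (8.37 ± 0.04 after the CYTOR LNA and 8.41 ± 0.05 after the control LNA, SD, n = 6 each) and CUL5 (9.16 ± 0.03 and 9.10 ± 0.04) had differences of -0.05 (SE 0.049) and 0.05 (SE 0.051).

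Among 14 tested substrates of CUL3 ligases, TOP1 fell and 0 rose, which is 7.14% of the list, near the 7.89% of all tested genes. TOP1, DNA topoisomerase I, read 7.19 to 7.34 (median 7.30) in CYTOR LNA arrays and 7.38 to 7.51 (median 7.47) in control arrays. It was 1.13-fold lower (log2 difference -0.18, SE 0.044, limma adjusted p = 0.013), with -0.18 within batch 2 and -0.17 within batch 1. Its dimmer second probe, near the array median with a mean of 6.57, differed by -0.04 (SE 0.043). With the mean of both probes the call was lost (limma adjusted p = 0.088), in a range of 0.0033 to 0.26 over 24 alternatives, the highest within batch 1, where the single CYTOR LNA array widens the error. The 13 others lay between -0.13 and 0.17.

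**Figure D2:**
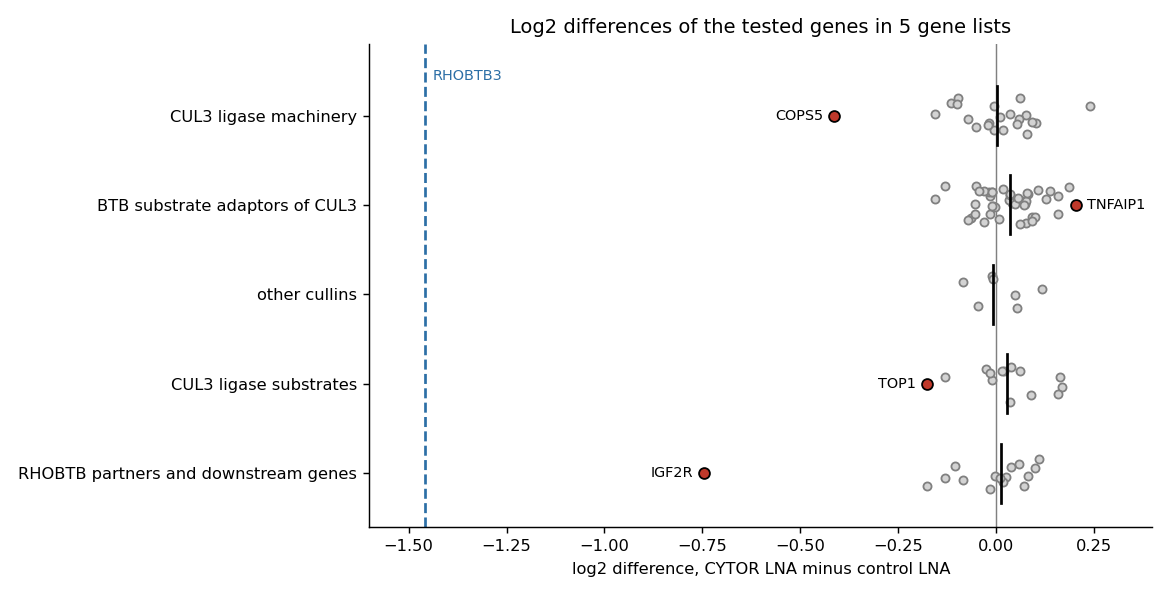
Log2 difference, CYTOR LNA minus control LNA, of the tested genes in each of 5 lists, with red points for genes called by limma (adjusted p below 0.05), grey points for the rest, black bars for list medians and a dashed line at RHOBTB3. The RHOBTB3 difference of -1.46 lies outside every list, IGF2R at -0.75 is the nearest called gene, and all list medians lie between -0.01 and 0.04.

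Genes tied to single RHOBTB proteins held 1 called gene. Of 16 tested partners and downstream genes, IGF2R fell, 0 rose and 15 did not pass, and the median difference was 0.01. The 6.25% called in this list lies near the 7.89% of all tested genes. IGF2R encodes the cation-independent mannose 6-phosphate receptor, one of the receptors that the RAB9 route returns to the Golgi. It read 9.07 to 9.42 (median 9.26) in CYTOR LNA arrays and 9.83 to 10.19 (median 9.97) in control arrays, with no overlap. It was 1.68-fold lower (log2 difference -0.75, SE 0.070, limma adjusted p = 3.5e-08), with -0.68 within batch 2 and -0.92 within batch 1.

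The other genes of that route did not pass, and they are named for their roles with their values in view. RAB9A, the GTPase of the route, differed by 0.01 (SE 0.054). M6PR, the cation-dependent receptor, differed by 0.00 (SE 0.057) and PLIN3, which binds the tails of both receptors, by 0.10 (SE 0.054). In the HIF1A branch, VHL, which recognises hydroxylated HIF1A, differed by 0.11 (SE 0.055), the hydroxylase EGLN1 by 0.07 (SE 0.047) and HIF1A by 0.03 (SE 0.081). Cyclin genes gave -0.18 for CCND1 (SE 0.054, limma adjusted p = 0.054) and -0.13 for CCNE1 (SE 0.047, limma adjusted p = 0.12). TMT1B, formerly METTL7B and linked to RHOBTB1 at the Golgi, differed by 0.08 (SE 0.033), and PDE5A by -0.01 (SE 0.032). Probes of PDE5A, TMT1B and the chemokine CXCL14, whose expression has been tied to RHOBTB2, averaged 6.51 to 6.76 after the CYTOR LNA, so they too were close to background.

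**Figure D3:**
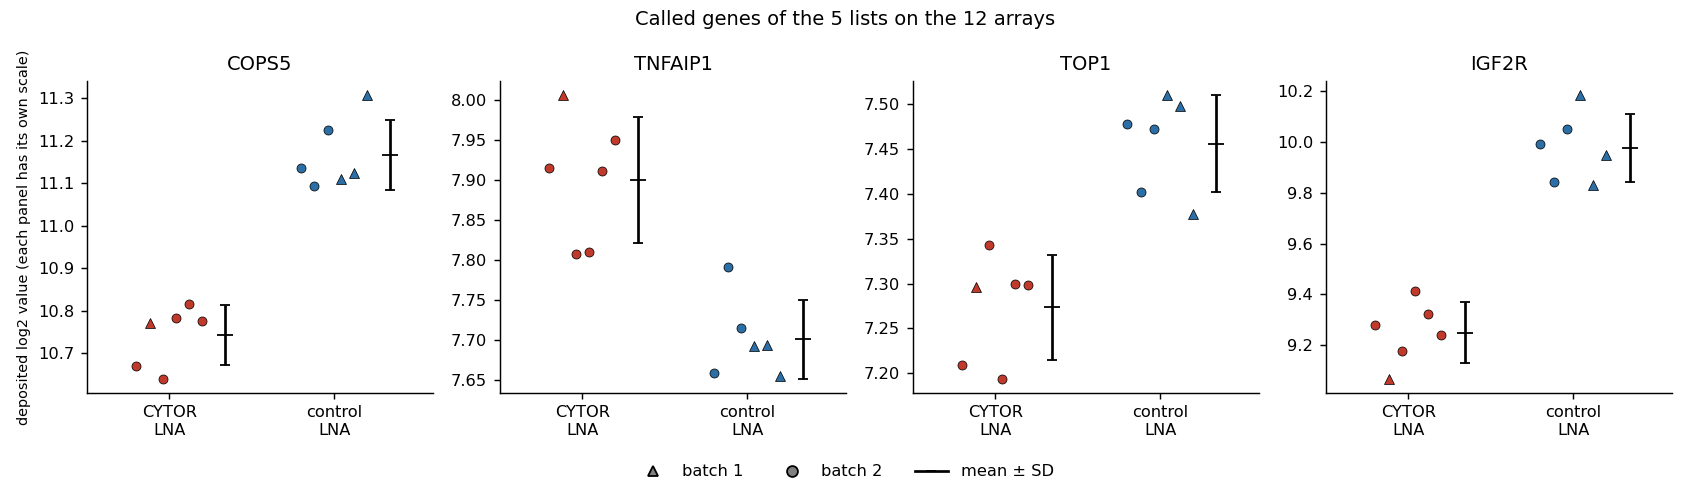
Deposited log2 value on each array of the 4 called genes of the lists, CYTOR LNA left and control LNA right, with triangles for batch 1, circles for batch 2 and bars for mean ± SD (n = 6); each panel has its own scale. TNFAIP1 is higher after the CYTOR LNA, the other 3 are lower, and the groups overlap for 0 of these 4 genes, which were picked as called; groups did not overlap for 6.76% of all tested genes.

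Likeness of pattern was measured as Pearson's r over the 12 arrays between each member's brightest probe and every other tested gene, and it is given as a description. The genes most like RHOBTB3 were PARVA, a focal adhesion adaptor, the receptor phosphatase PTPRG, the F-box protein gene FBXO34, the tubulin tyrosine ligase TTL and the kinase MTOR, with r between 0.990 and 0.996. All 5 fell, with log2 differences of -0.79, -0.87, -0.89, -1.26 and -0.58 in that order. Over 12 arrays that fall into 2 groups such values mostly restate the gap between the groups, and all genes share the same arrays and normalization. Within the 6 control arrays alone r ran from 0.829 for FBXO34 to 0.985 for MTOR. These arrays were among the 12 used to pick the 5 genes from 12713. No within-control r of other genes is set beside it. Within the 6 CYTOR LNA arrays r ran from -0.01 for TTL to 0.25 for PARVA. Control replicate 2, the lowest for RHOBTB3, was also the lowest control array for PARVA, PTPRG and MTOR.

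**Figure D4:**
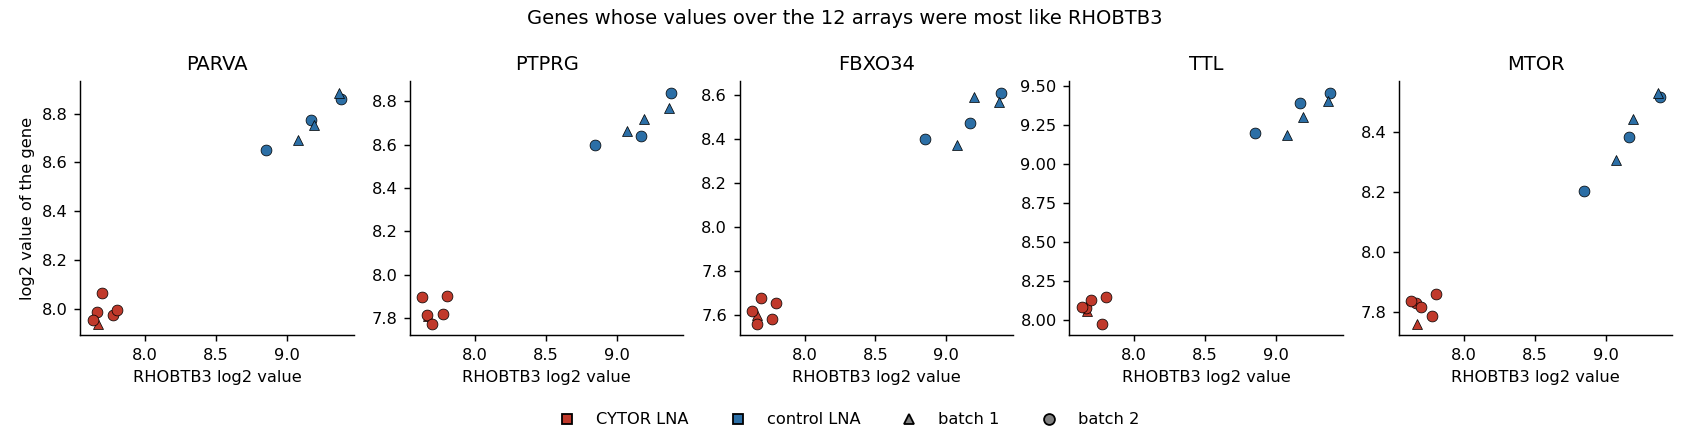
Log2 value of 5 genes against that of RHOBTB3 on the 12 arrays, red for CYTOR LNA and blue for control LNA, with triangles for batch 1 and circles for batch 2. Control arrays rise together in each panel (r 0.829 to 0.985), while CYTOR LNA arrays form a compact cloud (r -0.01 to 0.25). The 5 genes were picked by r over all 12 arrays.

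The genes most like the other members were found in the same way. For RHOBTB1 the 5 genes were SLFN5, QKI, DTX3, MPP1 and BMP2K (r 0.866 to 0.905). For RHOBTB2 they were JPT2, KLHDC9, GNG13, CLDN20 and TMSB4X (r 0.848 to 0.936), and for CUL3 they were MRPS24, PSMB3, EXOSC5, LOC101928326 and SNORA65 (r 0.852 to 0.909). None of these 15 genes was called by limma (7.89% of all tested genes were), and their differences lay between -0.06 and 0.06. Such genes were picked for likeness to probes with almost no gap between the groups, so small differences follow from that choice. Each r is the top of a search through 12713 or more genes for a probe near background.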

How the data were processed

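Each array held total RNA of 1 sample. The authors deposited log2 values, 48107 probe rows by 12 arrays; 784 rows are empty and were not used. The submitters' processing notes name lumi; the sources used here give no version, transformation or normalization, so whether background was subtracted is not known. Groups, replicate numbers and batches come from the labels. Probes were named through the platform annotation, with symbols updated through RefSeq gene IDs: 30113 had 1 symbol, 8 several and 17202 none there.

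A probe was tested if its mean was at or above 6.52, the median of all probe means, which kept 23662 probes for 12714 genes, each gene read by its brightest probe. Limma 3.58.1 (R 4.3.3; lmFit, then eBayes with a trend on intensity) fitted group plus batch, and p-values were adjusted by Benjamini-Hochberg across the tested probes, with calls at 0.05. The fit was tested on simulated data. Differences of untested member probes come from the same model on all probes. Intervals are at 95% and cover the spread between arrays.

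The members, the 5 lists, the test and the alternatives were chosen with earlier results of these data known, RHOBTB3 for its fall. The naming rule took every member probe, up to 8 called genes a list and the 5 genes most like each member; a further list fixed with them is not reported here. Alternatives varied the batch term, replicate block, chip position, filter, normalization, variance model, gene summary and arrays.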

Additional observations from a re-analysis of the deposited data

Results flagged for a closer look

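Chance flags about 1 in 20 groups of 6 arrays by the test for a lone high or low array used here, and 1 of the 22 groups examined was picked out. For RHOBTB2, control replicate 6 read 6.65 while the nearest control array read 6.60, both near the array median.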

How the results depend on the processing

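RHOBTB3 stayed between -1.56 and -1.38 over 20 alternatives, a description of values that chose it. The 687 genes called lower became 570 to 846. The 316 called higher became 494 without the batch term, 680 within batch 1, and 199 to 363 with 1 array left out, the lowest without control replicate 2. Within batch 1, which has 1 CYTOR LNA array, RHOBTB1 probes gave 0.0501 (ILMN_2376502), -0.0250 (ILMN_2293441) and 0.109 (ILMN_1795255).

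List counts were small and moved with the setting, as did the counts over all tested genes. Against 687 lower and 316 higher, these were 837 and 494 without the batch term and 719 and 353 with chip position. They were 703 and 318 with quantile normalization, 762 and 379 without an intensity trend and 772 and 444 with probes averaged per gene. They were 727 and 390 in the brightest 30% of probes, which tests fewer probes, and 603 and 335 within batch 2. Ligase machinery, 1 called, had 2 without the batch term, with chip position, in the brightest 30% of probes, with quantile normalization or with probes averaged per gene, 4 within batch 1, and 1 to 2 with 1 array left out. Adaptors, 1 called, had 3 without the batch term, 2 with chip position, in the brightest 30% or without an intensity trend, 6 within batch 1, 4 with the mean of probes, and 1 to 3 with 1 array left out. Substrates, 1 called, had 2 without an intensity trend and 4 within batch 1. Partners, 1 called, had 2 without the batch term, with chip position, in the brightest 30%, with quantile normalization, without an intensity trend or with the mean of probes, 3 within batch 2, 5 within batch 1, and 1 to 3 with 1 array left out. Within batch 2 TNFAIP1 was not called (limma adjusted p = 0.10). Counts within batch 1 rest on its single CYTOR LNA array, and the counts over all tested genes rose there too. The cause of these moves was not tested.

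Replicate numbers are shared by the groups, but same-numbered arrays deviated together with r between -0.18 and 0.18 over 6 pairs, and 1 of 6 correlated best with its own number, so they were not taken as pairs. With the replicate block 2 adaptors were called, and RHOBTB3 differed by -1.43.

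Probes near the array median limit what can be said of CUL3, RHOBTB1 and RHOBTB2.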
